A study of Mus musculus with 10 samples.

Results

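The collagen gene family was followed through the colorectum of mice with chemically induced colitis that had been given miR-29a or miR-29b. Members were all genes whose symbol has the form of a collagen alpha chain (Col, a type number, a and a chain number), 43 of the 23284 features in the files. Of these, 23 lay above the lower limit of the values (the floor) in every library of 1 or more groups and were tested, as were 13050 of the 23284 features overall. The tested members were 7 of 11 fibrillar collagens, 3 of 6 type IV collagens, which form basement membranes, and 13 of 26 other collagens. A further 18 members lay at the floor in all 10 libraries. Col6a4 and Col6a5 were above it in 1 library each, by 0.10 and 0.19 on the log2 scale, and were not tested.

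All animals were BALB/c mice aged 7 weeks, and RNA came from whole colorectum in 10 libraries, 2 per group. Normal mice were sampled on day 0 and had neither colitis nor injections. The other 4 groups received 2% dextran sodium sulfate (DSS), which damages the colonic epithelium, and an RNA carried by super carbonate apatite (sCA), a mineral nanoparticle, through the tail vein on days 1, 2 and 3. These groups were a negative control miRNA (NC-miR) collected on day 2, NC-miR on day 4, miR-29a on day 4 and miR-29b on day 4. The labels of the day 2 group also list the injection of day 3, and the names of the NC-miR files do not settle which part stands for the day, so days for NC-miR follow the sample titles. Comparisons with normal mice cannot separate DSS, carrier, injection and day. The labels do not say that the 2 libraries of a group came from separate animals, so p-values measure the spread between libraries, which may be technical. In bulk tissue, fewer cells of a type and less RNA per cell cannot be told apart.

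Collagens are triple helices of alpha chains. Fibrillar types I, III and V build the load-bearing fibres of the submucosa, type IV forms the sheet under epithelium and around vessels and muscle, and the remaining types link, coat or anchor these structures. The miR-29 family is known as a repressor of extracellular matrix genes, with many collagen mRNAs among its described targets, and pairs with them mainly through its seed, bases 2 to 8.

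The injected miRNAs and the endogenous miR-29c share that seed. The mature mouse sequences (RefSeq, GRCm38.p6) are printed to show it in capitals:
mmu-miR-29a-3p: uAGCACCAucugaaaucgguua
mmu-miR-29b-3p: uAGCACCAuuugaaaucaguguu
mmu-miR-29c-3p: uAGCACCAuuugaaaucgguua
Counted from the 5′ end, miR-29a and miR-29b differ by C10U, G18A, U21G and A22U, with the miR-29a base first, and miR-29b has 1 further base at its 3′ end. The file lists miR-29b from 2 loci.

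The reverse complement of the seed, TGGTGCT in DNA letters, was searched in the 3′ UTRs of GENCODE M21 transcripts on the sense strand only. It was found in 14 of the 23 tested collagens (60.9%) and in 1613 of 11528 tested features with a 3′ UTR (14%). Among features whose 3′ UTR was of similar length to those of the collagens, the share was 11.8%. At least 2 matches occurred in 17.4% of the tested collagens and 2.1% of all features. By class the match was present in 6 of 7 fibrillar, 3 of 3 type IV and 5 of 13 other collagens. Col1a2 and Col6a1 held only the shorter match GGTGCTA, to bases 2 to 7 followed by A. The following sites, from the chains of types I, III, IV and V that are described in detail later, show the match in capitals, with the A that follows it where present:
Col1a1, mm10 chr11:94952524-94952545, plus strand: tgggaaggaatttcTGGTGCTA
Col3a1, mm10 chr1:45348968-45348989, plus strand: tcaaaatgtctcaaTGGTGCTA
Col4a1, mm10 chr8:11199761-11199782, minus strand: ccaccgtcacaacaTGGTGCTA
Col5a3, mm10 chr9:20770503-20770524, minus strand: tccaccaggcctttTGGTGCTA
The Col5a3 3′ UTR held 2 more matches without the following A. Col5a1 held 4 matches and Col4a5 held 3. A sequence match is a description of these letters and not evidence of binding in this tissue.

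The deposited values are log2 values relative to a baseline of each gene, so levels can be compared between libraries of a gene and not between genes. Read counts were not in the files and depth is unknown. Per library, 12677 to 12937 features lay above the floor. Over all 10 libraries the median range of a tested collagen was 0.68, the same as the median range of all tested features (0.68), and the median SD within groups was 0.20 for collagens and 0.18 for all features. Differences below are from limma's fit across all tested features, given with a standard error, n = 2 libraries per group, 2-sided, with p adjusted by Benjamini-Hochberg over all 13050 features, and called under 0.05.

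Col5a3 was the only collagen that passed in any of 9 comparisons. It encodes the alpha 3 chain of type V collagen, a minor fibrillar collagen (mm10 chr9:20770050-20815117). Its log2 values were 0.50 and 0.59 in the normal libraries, -0.06 and -0.34 in NC-miR day 2, -0.13 and -0.52 in NC-miR day 4, -0.31 and -0.34 in miR-29a and -0.49 and -0.49 in miR-29b. All 8 DSS libraries were below both normal libraries. NC-miR day 4 replicate 2 and both miR-29b libraries lay at the floor, and the normal libraries stood only 0.97 and 1.05 above it, so the gene was never far above the limit, and a fall with miR-29b could not have been read beyond it. Against normal, Col5a3 was lower with miR-29b (log2 difference -1.03 ± 0.16, 95% interval -1.41 to -0.66, adjusted p = 0.0492). It was the only collagen called in that comparison, where 0.49% of all features were called and 0.153% were called lower.

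The same gene was close to the threshold in the other DSS groups. Its difference from normal was -0.74 ± 0.16 in NC-miR day 2 (limma adjusted p = 0.0863), -0.87 ± 0.16 in NC-miR day 4 (0.0775) and -0.87 ± 0.16 in miR-29a (0.093). These comparisons share the 2 normal libraries. With both NC-miR days averaged the difference was -0.80 and passed (adjusted p = 0.0375). The call with miR-29b was lost in 15 of 19 alternatives, among them centring libraries on the median feature (adjusted p = 0.0513) and leaving out normal replicate 2 (0.267). Among the 15, a filter for all 10 libraries dropped the gene, and a floor raised by 1 lay close to its normal values, so neither could keep the call. Within the DSS groups the floor limits what can be read for Col5a3. NC-miR day 4 stood 0.35 and 0.00 above it, so a further fall with miR-29 could hardly have been seen. The difference was 0.00 ± 0.16 for miR-29a and -0.16 ± 0.16 for miR-29b against NC-miR day 4, the first with an interval from -0.37 to 0.38.

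Complete separation of the 8 DSS libraries from both normal libraries is a coarser description, and 7.62% of all features were separated lower and 5.74% higher. Of the 23 collagens, Col5a3 was separated lower and 0 were separated higher. Collagens called against normal by limma numbered 0 for NC-miR day 2, where 1.22% of all features were called, 0 for NC-miR day 4 (0.383% of features) and 0 for miR-29a (0.421%). At an unadjusted p under 0.05 there were 2 collagens for NC-miR day 2, 1 for NC-miR day 4, 3 for miR-29a and 2 for miR-29b, against 15.2%, 15.2%, 11% and 15.3% of all features.

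Set against normal one group at a time, more collagens stood above than below in the miR-29 groups. For miR-29a, 19 of 23 estimates were above 0 (46.1% of all features) and 11 collagens had both libraries above both normal libraries (21% of features), while 2 had both below (25.2%). For miR-29b, 15 of 23 were above 0 (45.3% of features), 7 were separated higher (21.3%) and 3 lower (24.5%). For NC-miR day 4, 13 of 23 were above 0 (44.6%), 1 was separated higher (20.4%) and 1 lower (26.9%). For NC-miR day 2, 11 of 23 were above 0 (41.2%), 5 were separated higher (18.6%) and 3 lower (29.7%). The medians over the 23 collagens were 0.19, 0.15, 0.04 and -0.03 in that order, and over all features -0.02, -0.03, -0.03 and -0.06. These 4 comparisons share the normal libraries. Apart from Col5a3 with miR-29b, 0 of these differences passed.

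Single libraries moved these medians. The miR-29a median against normal was 0.0635 without normal replicate 1 and 0.30 without normal replicate 2, and the miR-29b median was 0.0847 without normal replicate 1 and 0.0239 without miR-29b replicate 1. The NC-miR day 2 median ran from -0.095 to 0.13 as libraries were left out in turn. Col8a2, a network-forming chain, passed the filter only through miR-29a, where it is highest, and without it 18 of 22 collagens were above 0 and 10 separated higher for miR-29a against normal. Endothelial, epithelial, macrophage, smooth muscle and adipocyte markers had medians above normal in both miR-29 groups. Fibroblast medians were above normal with miR-29a only, squamous medians with miR-29b only, and glial medians with neither. Of 10 endothelial markers, 10 were above 0 and 9 separated higher with miR-29b (median 0.44), and 8 were above 0 and 6 separated higher with miR-29a (median 0.27), against medians of 0.09 and 0.04 in NC-miR day 2 and day 4. Of 10 epithelial markers, 8 were separated higher with miR-29b (median 0.45) and 3 with miR-29a (0.11). In NC-miR day 4, 3 were separated higher (0.07), and in NC-miR day 2, 2 were (-0.015). Of 9 macrophage markers, 4 were separated higher with each miRNA (medians 0.32 for miR-29a and 0.31 for miR-29b). Separated lower were 1 with miR-29a and 2 with miR-29b, and in NC-miR day 2, 3 were separated higher (median 0.01). With miR-29a and miR-29b in turn, fibroblast medians were 0.18 and -0.04, and smooth muscle medians 0.13 and 0.08. Adipocyte medians were 0.65 and 0.69, glial -0.14 and -0.37, and squamous -0.58 and 0.05. In NC-miR day 2 and day 4 the adipocyte medians were 0.94 and 0.43. All endothelial, epithelial and macrophage markers were above the floor in each library, and 0 were called. The part of any of these cell types in the collagen values was not tested.

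**Figure D1:**
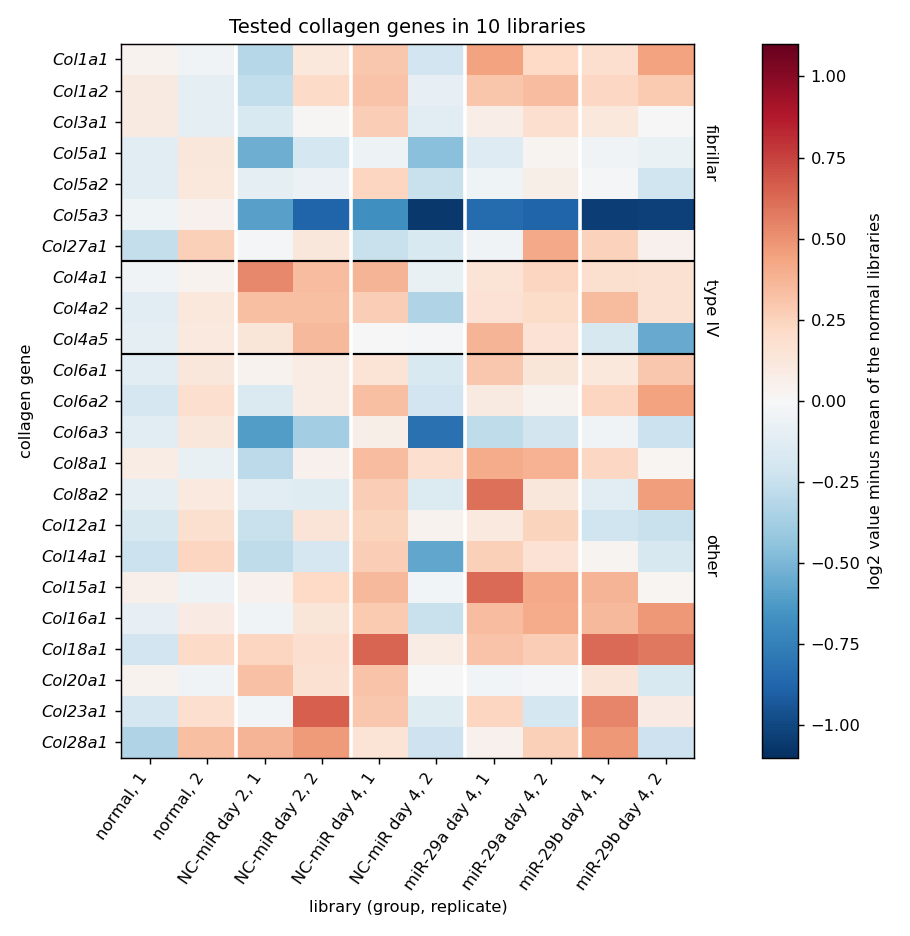
Each row is a tested collagen and each column a library, coloured by its log2 value minus the mean of the normal libraries; black lines divide fibrillar, type IV and other collagens. Col5a3 is low in all 8 DSS libraries, while NC-miR day 4 replicate 2 is low for many genes.

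The major fibrillar chains lay near normal after DSS with NC-miR. Col1a1, which encodes the alpha 1 chain of type I collagen (mm10 chr11:94936224-94953042), had values of -0.14 and -0.21 in normal, -0.49 and -0.06 in NC-miR day 2, 0.12 and -0.39 in NC-miR day 4, 0.27 and 0.04 in miR-29a and 0.01 and 0.27 in miR-29b. The 4 miR-29 libraries were above both normal libraries, and the NC-miR libraries spanned nearly the whole range. Its partner chain Col1a2 (chr6:4505618-4541543) had values of -0.05 and -0.25 in normal, -0.42 and 0.06 in NC-miR day 2, 0.17 and -0.24 in NC-miR day 4, 0.15 and 0.19 in miR-29a and 0.08 and 0.14 in miR-29b. The 4 miR-29 libraries again lay above normal and within or just above the NC-miR range. Against normal, Col1a1 differed by 0.33 ± 0.22 with miR-29a and 0.32 ± 0.22 with miR-29b (limma adjusted p = 0.645 and 0.523).

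Col3a1, whose product forms the thin fibres of soft tissue (chr1:45311538-45349706), had values of 0.08 and -0.12 in normal, -0.19 and -0.01 in NC-miR day 2, 0.26 and -0.14 in NC-miR day 4, 0.06 and 0.17 in miR-29a and 0.10 and -0.01 in miR-29b. All groups overlapped NC-miR day 4. The neighbouring Col5a2, a type V chain (chr1:45374331-45503282), had values of -0.07 and 0.16 in normal, -0.05 and -0.02 in NC-miR day 2, 0.28 and -0.21 in NC-miR day 4, -0.01 and 0.11 in miR-29a and 0.02 and -0.18 in miR-29b. Its groups overlapped too. Col5a1, the type V chain that helps start fibrils (chr2:27886381-28039510), had values of -0.06 and 0.20 in normal, -0.47 and -0.12 in NC-miR day 2, 0.01 and -0.40 in NC-miR day 4, -0.08 and 0.10 in miR-29a and 0.03 and -0.01 in miR-29b. Both NC-miR day 2 libraries were below both normal libraries, by a difference of -0.37 ± 0.19 that did not pass (limma adjusted p = 0.409).

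**Figure D2:**
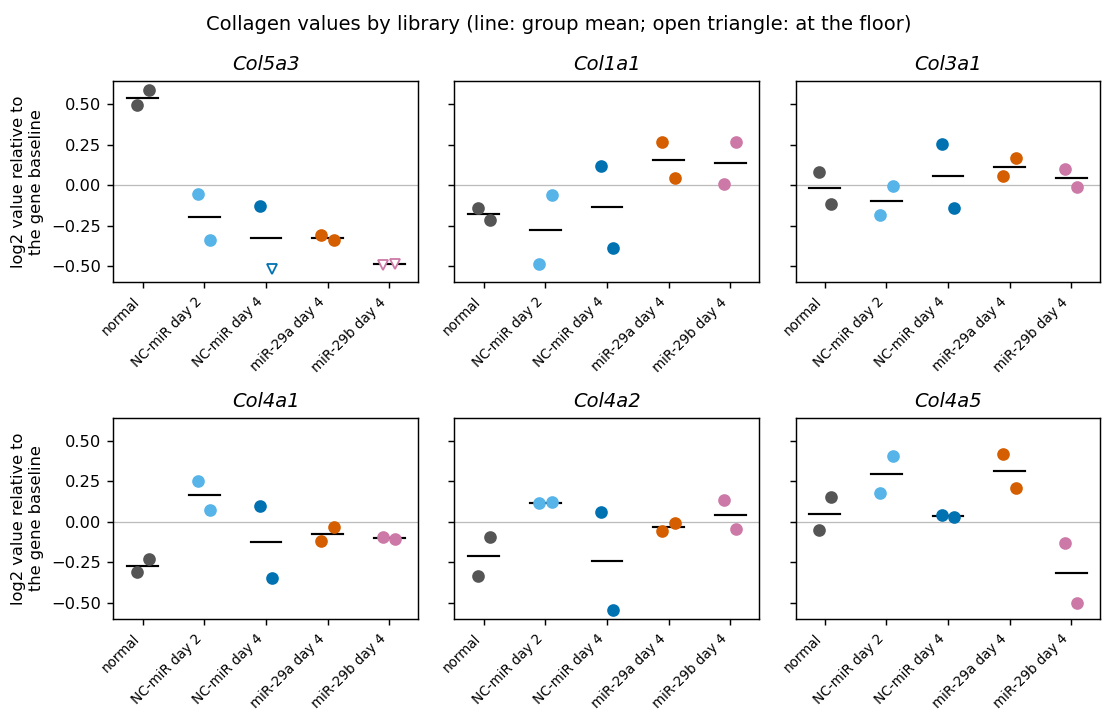
Log2 values relative to the gene baseline in each library for 6 collagens, by group, with group means as lines and open triangles for libraries at the floor. Col5a3 separates normal from all DSS libraries; the 2 NC-miR day 4 libraries lie far apart for Col1a1, Col3a1, Col4a1 and Col4a2.

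Among the type IV chains, Col4a1 and Col4a2 had their highest group means in NC-miR day 2. Col4a1 (chr8:11198423-11312889), an alpha chain of the common basement membrane network, had values of -0.31 and -0.23 in normal, 0.26 and 0.07 in NC-miR day 2, 0.10 and -0.35 in NC-miR day 4, -0.12 and -0.03 in miR-29a and -0.09 and -0.10 in miR-29b. Both day 2 libraries and all 4 miR-29 libraries were above both normal libraries. The difference of NC-miR day 2 from normal was 0.43 ± 0.16, with unadjusted p = 0.0294 and limma adjusted p = 0.265. Col4a2, its partner in that network (chr8:11312805-11449287), had values of -0.33 and -0.10 in normal, 0.12 and 0.12 in NC-miR day 2, 0.06 and -0.54 in NC-miR day 4, -0.06 and -0.01 in miR-29a and 0.14 and -0.05 in miR-29b. Its day 2 difference from normal was 0.33 ± 0.20 (adjusted p = 0.477), in the same direction as Col4a1. The median difference of adipocyte markers from normal was also largest in NC-miR day 2. All 7 tested were above 0 against normal and 6 were separated higher (median 0.94), with 0 called, and on day 4 of NC-miR their median was -0.55 against day 2. Their library medians relative to the normal mean were 1.11 and 0.93 in NC-miR day 2 and from 0.05 to 1.48 in the other DSS libraries. The 2 normal libraries themselves lay far apart, at -0.47 and 0.47. The part of fat tissue in the type IV values was not tested.

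Col4a1 and Col4a2 lie head to head and their promoter windows (RefSeq, GRCm38.p6) overlap over 78 bases. The shared stretch is shown because the group means of both genes were highest in NC-miR day 2 and lower in NC-miR day 4, with the GC box GGGCGG in capitals:
Col4a1 and Col4a2, mm10 chr8:11312777-11312854, plus strand: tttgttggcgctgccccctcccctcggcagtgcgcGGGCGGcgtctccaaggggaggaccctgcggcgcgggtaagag
Neither difference between the NC-miR days passed (limma adjusted p = 0.83 for Col4a1 and 0.822 for Col4a2). NC-miR day 4 replicate 2 was low for both genes (-0.35 and -0.54), while replicate 1 was 0.10 and 0.06. A role of the shared stretch was not tested. GGGCGG, searched on both strands, occurred in 35.7% of 32851 promoter windows and in 13 of the 19 tested collagens with a window. CCAAT, searched the same way, had 0 matches in the overlap and was present in 37.4% of windows. It occurred in 7 of the 19 tested collagens with a window, Col4a1 and Col4a2 among them, outside the overlap.

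The third tested type IV chain behaved differently between the 2 miRNAs. Col4a5 (mm10 chrX:141475370-141689236), an alpha chain of a less widespread type IV network, had values of -0.05 and 0.15 in normal, 0.18 and 0.41 in NC-miR day 2, 0.04 and 0.03 in NC-miR day 4, 0.42 and 0.21 in miR-29a and -0.13 and -0.50 in miR-29b. Both miR-29a libraries were above both NC-miR day 4 libraries and both miR-29b libraries were below them. The log2 difference between miR-29a and miR-29b was 0.63 ± 0.17, with a 95% interval from 0.24 to 1.03 on the log2 scale. This is a 1.55-fold value. Its unadjusted p was 0.00573 and its limma adjusted p was 0.665, so it did not pass over all features. Against NC-miR day 4 it was 0.28 ± 0.17 with miR-29a and -0.35 ± 0.17 with miR-29b (adjusted p = 0.72 and 0.425). As a class, the 3 type IV chains had a median difference from normal of 0.33 in NC-miR day 2 and -0.01 in NC-miR day 4. The 7 fibrillar chains had medians of -0.08 and -0.01, and the 13 others 0.05 and 0.06.

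The central question for the family is whether miR-29a or miR-29b lowered collagen mRNA against NC-miR on day 4. With the mean of both miRNAs, 0 of 23 collagens passed in either direction, where 0.00766% of all features were called, and 1 had an unadjusted p under 0.05 (10.8% of features). For miR-29a alone 0 collagens passed and 0% of features were called, with 0 collagens at an unadjusted p under 0.05 (7.63% of features). For miR-29b alone 0 collagens passed and 0% of features were called, with 0 collagens at an unadjusted p under 0.05 (12.5%). Estimates lay mostly above 0. The median over the 23 collagens was 0.20 with miR-29a (20 above 0), 0.15 with miR-29b (16 above 0) and 0.18 for the mean (17 above 0), against medians of 0.02, 0.02 and 0.02 over all features, of which 53.4%, 53% and 54.1% were above 0. Without Col8a2, which passed the filter only through miR-29a, 19, 15 and 16 of 22 collagens were above 0 in that order. Their medians were 0.17, 0.16 and 0.16. Both miR-29 comparisons use the same 2 NC-miR day 4 libraries. Class medians for the mean were 0.18 for fibrillar, 0.04 for type IV and 0.18 for other collagens.

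**Figure D3:**
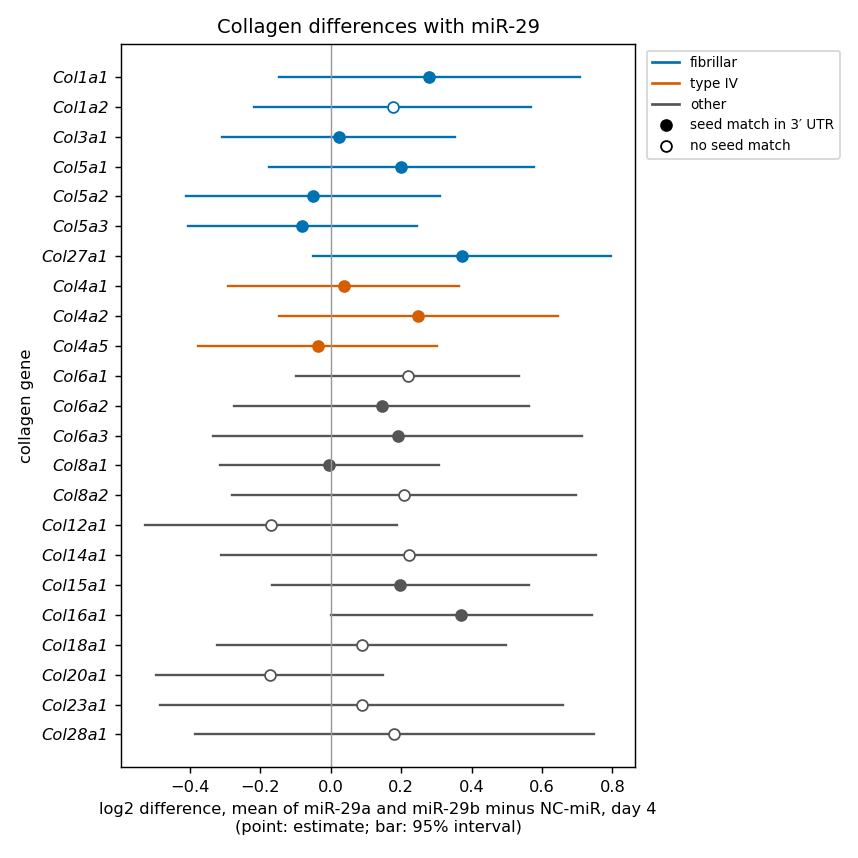
Log2 difference of the mean of miR-29a and miR-29b from NC-miR on day 4 for each tested collagen (point) with its 95% interval (bar), coloured by class; filled points have a seed match in the 3′ UTR. All intervals except that of Col16a1 include 0, and 17 of 23 estimates lie above 0.

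For the best-known targets the intervals were wide and included 0. Col1a1 was 0.28 ± 0.19 above NC-miR day 4 for the mean of both miRNAs, with a 95% interval of the change from -9.72% to 63.3% (limma adjusted p = 0.576). Col1a2 differed by 0.18 ± 0.17, from -14% to 48.3%. Col3a1 differed by 0.02 ± 0.14, from -19.2% to 27.7%, and Col4a1 by 0.04 ± 0.14, from -18.2% to 28.8%. These bounds rest on the 2 control libraries, which differed from each other by more than each of these estimates. Without NC-miR day 4 replicate 2, the differences were 0.03 for Col1a1, -0.03 for Col1a2, -0.18 for Col3a1 and -0.19 for Col4a1. Without replicate 1 they were 0.53, 0.38, 0.22 and 0.26 in that order. Centred on the smooth muscle markers, an alternative chosen after seeing the data, they were -0.07 for Col1a1, -0.17 for Col1a2, -0.33 for Col3a1 and -0.31 for Col4a1, the last 2 beyond the lower ends of the intervals above (adjusted p from 0.306 to 0.833).

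Among the collagens with the smallest p in these comparisons, Col16a1 and Col27a1 were highest with miR-29. Col16a1, a fibril-associated collagen (mm10 chr4:130047817-130099277), had values of -0.33 and -0.14 in normal, -0.27 and -0.10 in NC-miR day 2, 0.05 and -0.48 in NC-miR day 4, 0.10 and 0.17 in miR-29a and 0.12 and 0.24 in miR-29b. The 4 miR-29 libraries were above all 6 others. The difference from NC-miR day 4 was 0.37 ± 0.16 for the mean (unadjusted p = 0.0499, limma adjusted p = 0.464), and without NC-miR day 4 replicate 2 it was 0.10. Col27a1, a fibrillar collagen known from cartilage (chr4:63214009-63334991), had values of -0.24 and 0.29 in normal, 0.02 and 0.16 in NC-miR day 2, -0.21 and -0.14 in NC-miR day 4, -0.01 and 0.44 in miR-29a and 0.28 and 0.07 in miR-29b. Its miR-29 libraries were above both NC-miR day 4 libraries and overlapped normal (difference 0.37 ± 0.18, adjusted p = 0.49). Col16a1 and Col27a1 were the 2 collagens separated higher for the mean, where 10.9% of all features were separated higher, and 0 collagens were separated lower (9.9% of features).

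Col15a1, Col6a1 and Col18a1 had smaller or less even differences. Col15a1 (chr4:47207655-47313167), a basement membrane zone collagen, had values of -0.16 and -0.28 in normal, -0.17 and 0.00 in NC-miR day 2, 0.13 and -0.25 in NC-miR day 4, 0.40 and 0.20 in miR-29a and 0.16 and -0.20 in miR-29b. The miR-29a libraries were above all NC-miR and normal libraries, by 0.36 ± 0.18 against NC-miR day 4 (limma adjusted p = 0.681) and 0.52 ± 0.18 against normal (0.351). Col6a1, a chain of beaded type VI microfibrils (chr10:76708792-76726044), had values of -0.21 and 0.03 in normal, -0.05 and -0.01 in NC-miR day 2, 0.06 and -0.26 in NC-miR day 4, 0.20 and 0.04 in miR-29a and 0.03 and 0.20 in miR-29b. Groups overlapped between NC-miR day 4 and both miRNAs. Col18a1, the source of the fragment endostatin (chr10:77052178-77166530), had values of -0.57 and -0.14 in normal, -0.12 and -0.18 in NC-miR day 2, 0.28 and -0.28 in NC-miR day 4, -0.05 and -0.09 in miR-29a and 0.27 and 0.23 in miR-29b. The miR-29b libraries were above normal by 0.61 ± 0.21 (unadjusted p = 0.0182, adjusted p = 0.225).

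A few collagens had negative estimates with miR-29. Col12a1, a collagen of the fibril surface (chr9:79598987-79721141), had values of -0.16 and 0.18 in normal, -0.24 and 0.16 in NC-miR day 2, 0.26 and 0.05 in NC-miR day 4, 0.12 and 0.26 in miR-29a and -0.21 and -0.23 in miR-29b. Both miR-29b libraries were below the miR-29a and NC-miR day 4 libraries, by -0.38 ± 0.18 against NC-miR day 4 (limma adjusted p = 0.424), and its 3′ UTR held no match to the miR-29 seed. Col20a1 (chr2:180983323-181017545), of the same fibril-associated group, had values of -0.06 and -0.13 in normal, 0.23 and 0.07 in NC-miR day 2, 0.22 and -0.10 in NC-miR day 4, -0.13 and -0.11 in miR-29a and 0.05 and -0.26 in miR-29b. Its difference was -0.17 ± 0.14 for the mean (adjusted p = 0.651). Of 23 collagens, 5 were separated higher than NC-miR day 4 with miR-29a (22% of all features) and 1 lower (19.3%). With miR-29b, 2 were separated higher (22.7%) and 2 lower (19.3%).

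Between the 2 miRNAs, 0 collagens passed and 0% of features were called, with 1 collagen (Col4a5) at an unadjusted p under 0.05, against 7.43% of features. Of 23 collagens, 15 were above 0 for miR-29a against miR-29b (51.8% of features), 7 were separated higher (19.3%) and 2 lower (19.7%). The median difference of miR-29a from miR-29b was 0.03 over collagens and 0.01 over all features. After Col4a5 the smallest p belonged to Col12a1 (0.41 ± 0.18, limma adjusted p = 0.671) and Col15a1 (0.32 ± 0.18, 0.699) above 0. Below 0 they belonged to Col18a1 (-0.31 ± 0.21), Col6a2 (-0.27 ± 0.21) and Col23a1 (-0.30 ± 0.29), with adjusted p from 0.724 to 0.808.

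Col6a2, another type VI chain (chr10:76595756-76623630), had values of -0.28 and 0.09 in normal, -0.26 and -0.02 in NC-miR day 2, 0.23 and -0.31 in NC-miR day 4, 0.01 and -0.06 in miR-29a and 0.14 and 0.35 in miR-29b. The miR-29b libraries were above those of miR-29a. Col23a1, a transmembrane collagen (chr11:51289679-51583925), was at the floor in normal replicate 1 and miR-29a replicate 2. Its values were -0.43 and -0.06 in normal, -0.27 and 0.42 in NC-miR day 2, 0.05 and -0.38 in NC-miR day 4, -0.01 and -0.44 in miR-29a and 0.29 and -0.15 in miR-29b. They overlapped between all pairs of groups on day 4. For the remaining tested members, Col6a3, Col8a1, Col8a2, Col14a1 and Col28a1, the difference of the mean of both miRNAs from NC-miR day 4 ran from -0.0037 to 0.22. Of these, Col8a1, a network-forming collagen of vessel walls, had the smallest p between the NC-miR days, higher on day 4 by 0.38 ± 0.16 (unadjusted p = 0.0397, limma adjusted p = 0.766). Col8a2 was at the floor in 4 libraries. Between the NC-miR days 0 collagens passed, where 0.0153% of features were called, with 1 collagen at an unadjusted p under 0.05 (6.41% of features). Of 23 collagens, 13 were above 0 on day 4 against day 2 (54.7% of features), 1 was separated higher (19.6%) and 4 lower (16.1%).

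The direction of the miR-29 estimates depended on which NC-miR day 4 library was kept. NC-miR day 4 replicate 2 had the lowest value of the 10 libraries for 10 of 23 collagens, against 13.8% of all features. Among these 10, Col5a3 and Col8a2 lay at the floor there and in other libraries, so they were tied with those rather than truly lowest. The share of all features also counts such ties. NC-miR day 4 replicate 1 was lowest for 0 of 23 and highest for 4 of 23, against 8.67% of features. Relative to normal, replicate 1 had the highest collagen median of the 10 libraries (0.27) and replicate 2 the lowest (-0.17). Without replicate 2, the median over collagens was -0.06 for miR-29a, -0.10 for miR-29b and -0.08 for the mean, and without replicate 1 it was 0.36, 0.35 and 0.37. Markers of connective tissue were also low in NC-miR day 4 replicate 2, as were 4 glial markers (median -0.83 relative to normal). Elsewhere they did not always follow the collagens. Smooth muscle markers had a median of 0.18 in NC-miR day 2 replicate 1 and 0.01 in NC-miR day 4 replicate 1. The collagen medians there were -0.095 and 0.27. All 10 fibroblast markers and all 10 smooth muscle markers were above the floor in each library. Relative to normal, the fibroblast markers had a median of -0.44 in NC-miR day 4 replicate 2 and of -0.16 to 0.37 in the other 7 DSS libraries, and the smooth muscle markers had -0.41 there and 0.01 to 0.18 in the others. With libraries centred on the fibroblast markers, the collagen median for the mean of both miRNAs was -0.10, and on the smooth muscle markers -0.17, with 0 collagens called in either. The part of these cell types in the result was not tested.

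**Figure D4:**
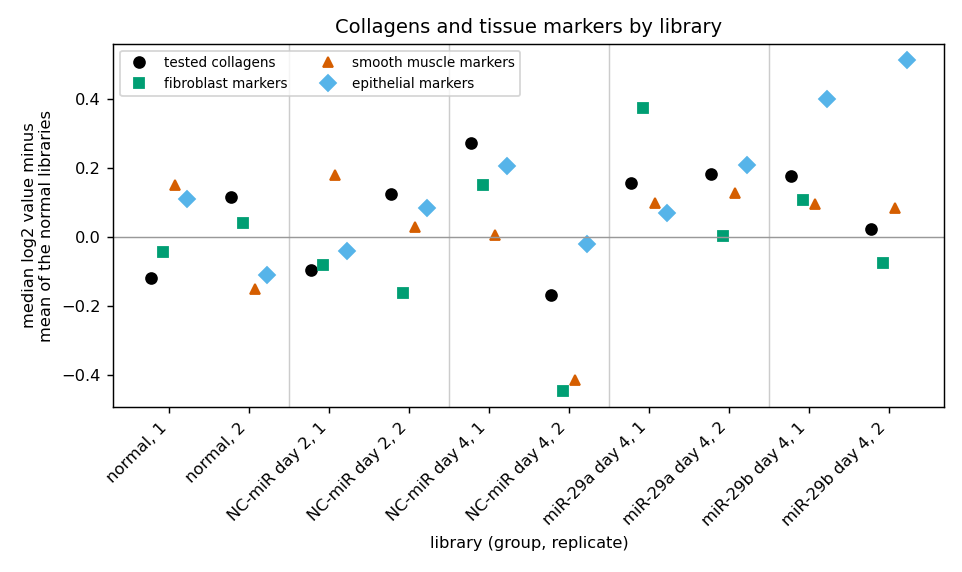
Median log2 value, relative to the mean of the normal libraries, of the 23 tested collagens and of 10 fibroblast, 10 smooth muscle and 10 epithelial markers in each library. Collagens, fibroblast and smooth muscle markers are all lowest in NC-miR day 4 replicate 2, at -0.17, -0.44 and -0.41.

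NC-miR day 4 replicate 1 stood apart in another way. Of 11 markers of squamous epithelium, the lining of the anal canal, 6 were above the floor in this library and 1 to 3 in the others, and Dsg3, Ivl, Krt4, Sprr3 and Trp63 were at the floor in all 10. Krt14, a keratin of the basal squamous layer, was 6.05 in this library and -1.20 to 0.19 in the others. Col17a1 and Col7a1, which anchor basal keratinocytes, were at the floor in all 10 libraries, including this one. Epithelial markers of the colon had medians of 0.40 and 0.51 in the miR-29b libraries and of -0.04 to 0.21 in the other DSS libraries. The part of these cells in the collagen values was not tested.

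Collagens with and without a seed match had like differences. For the mean of both miRNAs against NC-miR day 4, the 14 collagens with a match had a median of 0.17 (10 above 0) and the 9 without one a median of 0.18 (7 above 0). For miR-29a the medians were 0.17 with a match (14 of 14 above 0, from 0.00 to 0.39) and 0.20 without. For miR-29b they were 0.12 and 0.15. The 4 collagens with at least 2 matches, Col4a2, Col4a5, Col5a1 and Col5a3, had a median of 0.08 for the mean. Over all tested features with a 3′ UTR, the median was -0.03 for 1613 with a match and 0.03 for 9915 without. With libraries taken singly, the median of features with a match minus that of features without was 0.04 for each NC-miR day 4 library. It was -0.01 and 0.01 with miR-29a, and 0.01 and -0.10 with miR-29b. Normal libraries had -0.02 and 0.02, and NC-miR day 2 libraries -0.02 and 0.01. Values were taken relative to the mean of the normal libraries, so the 2 normal values mirror each other by construction and give no normal range. The 2 NC-miR day 4 values were the highest of the 10 libraries. Which group the shift belongs to was not tested. The miR-29b libraries lay further from each other on this measure than the NC-miR and miR-29a libraries did.

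Other genes of collagen biology were read from lists. Of 19 tested genes that modify or fold the chains in the endoplasmic reticulum, 0 passed in either direction for the mean of both miRNAs, with a median of 0.13. Those with the smallest p were Glt25d1, a collagen galactosyltransferase (0.26 ± 0.12), Leprel4 (0.29 ± 0.14) and Fkbp10, a collagen chaperone (0.44 ± 0.22), with limma adjusted p from 0.467 to 0.492. Of 8 tested processing and crosslinking genes 0 passed (median 0.15). Pcolce2, an enhancer of procollagen cleavage, had values of 0.05 and -1.06 in NC-miR day 4, 1.38 and 0.34 in miR-29a and 0.16 and 0.37 in miR-29b. Its difference was 1.07 ± 0.35 (adjusted p = 0.417), and NC-miR day 4 replicate 2 was the lowest of all 10 libraries. Lox, which crosslinks collagen, was not tested because it was not above the floor in both libraries of any group.

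Proteins that bind or remove fibrils gave the same count of 0. Of 9 fibril-binding proteoglycan genes 0 passed for the mean of both miRNAs (median 0.27), with Prelp at 0.36 ± 0.17, Fmod at 0.52 ± 0.25 and Podn at 0.30 ± 0.18. Fmod passed the filter only through miR-29a and lay at the floor in 1 NC-miR day 4 library and 1 miR-29b library, so its value depends on the floor. Of 6 genes of collagen breakdown and uptake 0 passed (median 0.10), with Ctsk, a collagen-cleaving lysosomal protease, at 0.49 ± 0.17 and Mmp2, a gelatinase, at 0.35 ± 0.14 (limma adjusted p = 0.417 and 0.449). Of 8 collagen receptor genes 0 passed (median -0.02). Among them Lair1, an inhibitory collagen receptor of leukocytes, had values of -0.75 and -0.63 in normal, 0.41 and 0.28 in NC-miR day 2, 0.00 and -0.20 in NC-miR day 4, -0.01 and 0.01 in miR-29a and 0.48 and -0.14 in miR-29b. All 8 DSS libraries were above both normal libraries, by 1.03 ± 0.20 in NC-miR day 2 (limma adjusted p = 0.0563) and 0.58 ± 0.20 in NC-miR day 4 (0.228). In NC-miR day 4 against normal 0 members of these 5 lists passed either, with Omd, a small proteoglycan, at -0.79 ± 0.20 (adjusted p = 0.137), Ctsk at -0.64 ± 0.19 (0.19) and Adamts2, which cuts the procollagen N-propeptide, at 0.61 ± 0.24 (0.28). Of 21 other genes described as miR-29 targets 0 passed for the mean of both miRNAs (median 0.08), with Hspg2, the basement membrane proteoglycan perlecan, at 0.29 ± 0.15 and the cell cycle kinase gene Cdk6 at 0.37 ± 0.30. Against normal in NC-miR day 4, the survival gene Mcl1 differed by 0.55 ± 0.15 (adjusted p = 0.169).

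Many of these values also depended on which NC-miR day 4 library was kept. Without replicate 2, and with no test, Mmp2 was at 0.12, Prelp at 0.14, Podn at 0.08 and Fkbp10 at 0.15. Hspg2 was then at 0.08 and Pcolce2 at 0.52, and each of these genes was smaller by more than 1.5 times. Cdk6 was larger, at 0.76, and was -0.02 without replicate 1. Without replicate 2, Ctsk was at 0.33, Fmod at 0.56, Leprel4 at 0.21 and Glt25d1 at 0.27. The list medians were then -0.03 for chain modification, -0.11 for processing and crosslinking and 0.01 for proteoglycans. They were 0.00 for breakdown and uptake, -0.20 for receptors and 0.01 for other described targets. Without replicate 1, the list medians in the same order were 0.31, 0.38, 0.41, 0.27, 0.19 and 0.10.

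The miR-29 genes themselves could be read only as far as an mRNA library shows them. Mir29a, Mir29b-1 and Mir29b-2 were at the floor in all 10 libraries. Mir29c was above it in 8 libraries and on day 2 of NC-miR both libraries reached the floor, with values of 2.54 and 3.11 in miR-29a, 0.71 and 0.93 in miR-29b, 0.05 and 2.04 in NC-miR day 4 and 0.69 and 2.12 in normal. Mature miRNA was not measured in these files, so delivery cannot be read from them.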

How the data were processed

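RNA of 10 colorectum samples was made into stranded mRNA libraries, per the labels' protocols. The submitters' processing notes name TopHat2 2.0.13, Bowtie2 2.2.3, SAMtools 0.1.19, Cuffnorm 2.2.1 and the build mm10. Per the file headers the authors' value column is FPKM. Its deposited numbers are log2 values around a baseline of each gene, many of them negative, and were used without further scaling. This differs from the FPKM assumed in the design, and the test was run on the log2 values directly.

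Each library's commonest value was subtracted to find features at the floor, where at least 2 libraries share a feature's lowest value within 0.0001. Group means were fitted with limma 3.58.1 (R 4.3.3) over all 10 libraries (5 residual and 3.26 prior degrees of freedom). The script was tested on simulated data. In groups at the floor the spread is too small, which bears on Col5a3. The files give no counts, so precision rests on 2 libraries per group.

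Members, lists and tests were chosen with earlier results of these data known. Collagens described with values in every library were those called in any comparison, the 3 of smallest p in each direction in the 4 comparisons of miRNAs on day 4, and the chains of types I, III, V and IV. From other lists at most 3 genes of smallest p were named, for the mean of both miRNAs or for NC-miR day 4 against normal. Krt14, Col8a1, Col8a2, Col17a1, Col7a1 and Lox were named outside this rule, after their values were seen. Markers of 8 cell types were listed. For the mean of both miRNAs against NC-miR day 4, medians were 0.18 for 9 macrophage, 0.21 for 10 epithelial and 0.24 for 10 fibroblast genes. They were 0.25 for 10 endothelial, 0.28 for 7 adipocyte, 0.35 for 10 smooth muscle and 0.37 for 4 glial genes. The 3 squamous genes had a median of -2.71, which was -0.08 without NC-miR day 4 replicate 1. In this comparison 0 of these marker genes were called. GENCODE M21 (GRCm38, the assembly of mm10) gave 3′ UTRs, 1 transcript per gene, and RefSeq (GRCm38.p6) gave miRNAs and promoters. Alternatives were the filter, the height of the floor, scaling, the libraries in the fit, variance moderation, the replicate number as a block, the NC-miR days averaged and leaving out each library.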

Additional observations from a re-analysis of the deposited data

How the results depend on the processing

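With both NC-miR days averaged, 1 collagen (Col5a3) was called against normal in place of 0 for each day, which stayed at 0 in the other alternatives. For miR-29b against normal, 0 collagens were called in place of 1 with no filter and with only the compared groups in the fit. Centring libraries on the median feature or, chosen after seeing the data, on the fibroblast markers also gave 0. So did a filter for all 10 libraries and a floor raised by 1. That filter drops Col5a3 by construction, and the raised floor lies close to its normal values, so neither could keep its call. Leaving out each library gave 0 to 1, with 1 kept without either NC-miR day 4 library. Same-numbered replicates did not deviate together (r from -0.24 to 0.11), so the numbers were not taken as pairs, and with the replicate number as a block 0 collagens were called for miR-29b against normal (Col5a3 limma adjusted p = 0.0723). In the other 6 comparisons 0 collagens were called under every alternative run.

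The median over all collagens moved with single libraries, most with those of NC-miR day 4. Leaving out each library in turn gave -0.17 to 0.27 for NC-miR day 4 against normal, -0.22 to 0.30 against NC-miR day 2, -0.0555 to 0.358 for miR-29a, -0.10 to 0.35 for miR-29b and -0.0796 to 0.37 for their mean against NC-miR day 4. The ranges were 0.0635 to 0.2997 for miR-29a and 0.0239 to 0.1781 for miR-29b against normal. Centred on the fibroblast markers the medians were 0.27 for NC-miR day 4 against normal, -0.13 for miR-29a, -0.0842 for miR-29b and -0.10 for the mean. Centred on the smooth muscle markers, also chosen after seeing the data, they were 0.30, -0.14, -0.22 and -0.17, and 0.35 between the NC-miR days. The cause was not tested. With 1 library left in a group, that library is assumed to vary like the others.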
